A study of Mus musculus with 18 samples.

Results

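The microRNA miR-138-5p was examined as 1 of the 1251 entries of a small RNA table from mouse skin carcinogenesis, and one of the 293 that passed a filter for testing, detection in 6 or more libraries. In the table it stands as mmu-miR-138-5p. It was selected because its measured level was raised in both kinds of lesion, so its differences between sample types, including that between the lesions, are given below as descriptions, without a test. The 3′ arms of its hairpins and the listed microRNAs of its pathways were not part of that selection and were tested. The data came from female SKH-1E Hairless littermates, an outbred strain that lacks the Hairless gene product, which received chronic low-dose ultraviolet radiation (UVR) from solar simulators. Small RNA was sequenced from 3 samples of each of 6 mice (numbered 2, 3, 7, 8, 9 and 10), giving 18 libraries. These were nonlesional skin with chronic UVR exposure (CHR), a papilloma (PAP, the benign precursor) and a cutaneous squamous cell carcinoma (cuSCC, labelled SCC), with 6 libraries of each. All 3 sample types had been irradiated, and unirradiated skin was not analysed here, so every difference is between a lesion and UVR-exposed skin or between both lesions. Each library was made from bulk tissue, in which fewer cells of a type and less RNA per cell cannot be told apart.

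MicroRNAs are short RNAs cut from hairpin precursors. The arm that is loaded into an Argonaute protein pairs through its seed with target messenger RNAs and lowers their output, while the other arm is mostly degraded. miR-138 is best known from brain, where it restrains the growth of dendritic spines. Targets described for it include the histone methyltransferase EZH2, the mesenchymal transcription factor ZEB2, the deacetylase SIRT1 and the hypoxia factor HIF-1α. In keratinocytes it is one of a small group of microRNAs that have been described to accumulate in replicative senescence, and in squamous tumours of the head and neck mucosa it has mostly been described as lowered.

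The mature sequence is shown because it holds the seed, by which other microRNAs that pair with the same sites can be sought. Sequences are from RefSeq on GRCm38.p6, the build that the labels call mm10. The seed, bases 2 to 8 from the 5′ end, is in capitals.
miR-138-5p: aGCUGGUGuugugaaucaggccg
This sequence of 23 bases was identical from both genes that encode it. Among the 1679 mature names of the RefSeq table, no other carried the same bases 2 to 8, nor the same bases 2 to 7, so no other named microRNA shared its seed. Of the 1251 entries, 1001 had a RefSeq sequence.

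The 2 hairpins are shown because only their 3′ arms tell the genes apart. The 5p arm comes first and the 3p arm second, both in capitals.
Mir138-1: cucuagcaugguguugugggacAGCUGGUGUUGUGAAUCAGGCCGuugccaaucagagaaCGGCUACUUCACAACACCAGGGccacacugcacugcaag
Mir138-2: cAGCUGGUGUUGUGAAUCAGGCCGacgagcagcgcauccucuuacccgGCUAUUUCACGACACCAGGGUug
Mir138-1 lies at chr9:122682876-122682974 on the plus strand, within an exon of Gm47135, which is annotated as a transcribed unprocessed pseudogene. Its nearest coding gene, Topaz1, is 64372 bp away. Mir138-2 lies at chr8:94324311-94324381 on the plus strand, within an exon of the long intergenic noncoding RNA C78859. The coding genes Slc12a3 and Nup93 are 4820 and 7084 bp from it.

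The 3p arms follow with the bases at which they differ in capitals.
miR-138-1-3p: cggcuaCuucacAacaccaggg
miR-138-2-3p: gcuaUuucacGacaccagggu
Over the 20 aligned bases they differ at 2, and miR-138-1-3p begins 2 bases earlier, so their seeds differ. A read of the 5p arm therefore could not be assigned to either gene, whereas a read of a 3p arm could.

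The deposited values are log2 of the share of usable reads (in ppm), quantile normalized across the libraries. This keeps the order of the entries within a library and gives detected entries of the same rank similar values in all libraries. The libraries differ in how many entries were detected, so the lower ends of their distributions differ. An entry without a value above the lowest of the table, 3.32 (10 ppm), was taken as not detected. CHR libraries held 200 to 328 detected entries, PAP libraries 163 to 281 and cuSCC libraries 236 to 365. The lowest detected value ranged from 3.39 to 5.77 among CHR libraries, from 3.71 to 6.83 among PAP and from 3.32 to 4.50 among cuSCC, and was above 5.5 in 3 libraries (CHR of mouse 7, PAP of mice 7 and 10). Pearson correlations between libraries of one type, across entries, ranged from 0.975 to 0.988 for CHR, from 0.907 to 0.971 for PAP and from 0.942 to 0.985 for cuSCC. Without read totals, the number of reads behind each value is unknown. The samples of a type are separate animals.

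miR-138-5p was low in irradiated nonlesional skin. In CHR it measured 4.88 in mouse 2, 5.92 in mouse 8, 5.32 in mouse 9 and 5.41 in mouse 10 on the log2 ppm scale, and it was not detected in mice 3 and 7. Those were the CHR libraries with the highest lowest detected values, 4.48 and 5.77, so a level like those of mice 2, 9 and 10 could have gone unseen in mouse 7. With undetected values at 3.32, the CHR mean was 4.69 ± 1.11 (SD, n = 6).

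In papillomas it was detected in all 6 mice. The level was 7.54 in mouse 2, 8.93 in mouse 3, 8.56 in mouse 7, 7.85 in mouse 8, 8.07 in mouse 9 and 10.60 in mouse 10, with a mean of 8.59 ± 1.10 (SD, n = 6). Mouse 10 stood highest, and the other five lay between 7.54 and 8.93. In cuSCC the level was 9.19 in mouse 2, 7.50 in mouse 3, 8.08 in mouse 7, 7.74 in mouse 8, 8.82 in mouse 9 and 9.19 in mouse 10, with a mean of 8.42 ± 0.75 (SD, n = 6). The cuSCC values lay within the range of the papillomas apart from mouse 3, and both lesion types lay wholly above CHR.

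**Figure D1:**
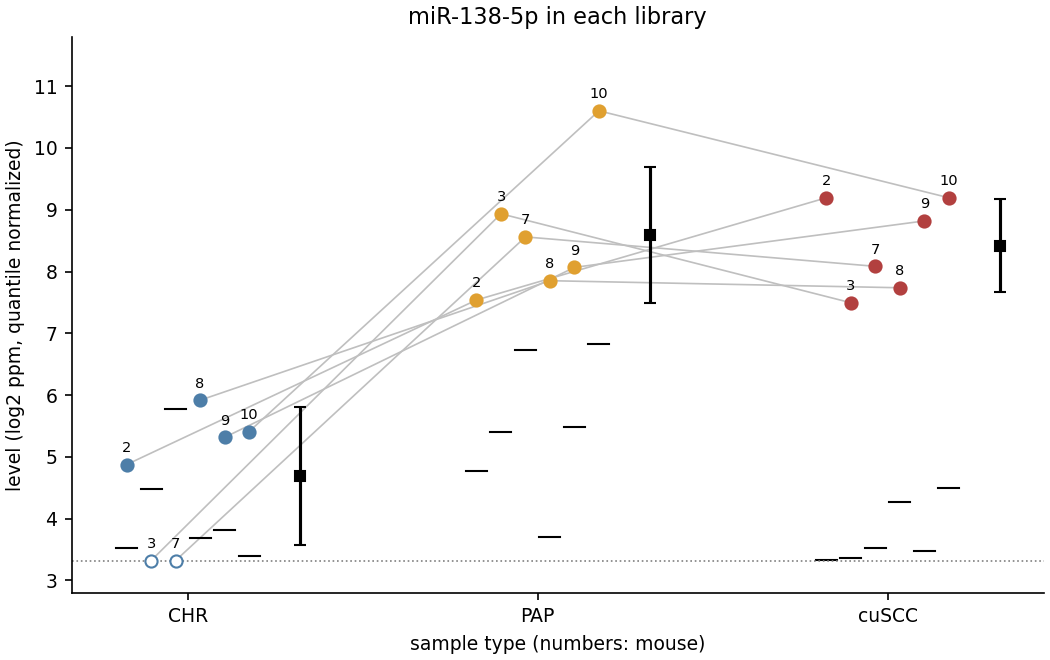
Level of miR-138-5p (log2 ppm, quantile normalized) in the CHR, PAP and cuSCC of 6 mice; each point is a library, lines join the samples of a mouse, bars give mean and SD, and open points were not detected and stand at 3.32. All 12 lesion libraries lie above the highest CHR library, 5.92, and lines between PAP and cuSCC run in both directions.

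The papilloma mean exceeded the CHR mean by 3.90 on the log2 scale (14.9-fold), against a pooled SD of 1.11, and the lowest papilloma stood 1.62 above the highest CHR library. The cuSCC mean exceeded the CHR mean by 3.73 (13.2-fold, pooled SD 0.948), with 1.58 between the lowest cuSCC and the highest CHR library. Both comparisons used the same CHR libraries. Lesions lay wholly above CHR for 19 of 293 tested microRNAs (6.48%) in papilloma and for 29 (9.9%) in cuSCC, counts that include miR-138-5p because of how it was selected. By size of the difference it ranked as number 5 of the 293 in papilloma and as number 2 in cuSCC.

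The sizes of these differences depend on the 2 undetected CHR values. With undetected values placed at the lowest detected value of their library, the differences were 3.30 (9.84-fold) in papilloma and 3.13 (8.73-fold) in cuSCC. With every value under 100 ppm raised to 100 ppm (6.64 on the log2 scale), which places all of the CHR libraries at that value, they were 1.95 (3.86-fold) and 1.78 (3.43-fold).

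Within each mouse the lesion was higher than the skin in 6 of 6 animals, which follows from all lesion libraries lying above all CHR libraries. The papilloma exceeded the CHR of the same mouse by 1.93 to 5.61 (median 3.97), and the cuSCC by 1.82 to 4.76 (median 3.98). The smallest of these differences were in mouse 8, whose CHR level was the highest, and they take the undetected CHR of mice 3 and 7 at 3.32.

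Because the values are quantile normalized, the rank of an entry in its library carries the same information. Where it was detected in CHR, miR-138-5p ranked 190 to 224 of 1251 entries from the top. In papilloma its rank was 72 to 141 (median 117.5) and in cuSCC 96 to 143 (median 115). As a percentage of the detected entries of the library, its rank was 62.2 to 74.9 in the 4 CHR libraries that showed it. It was 44.2 to 64.9 in papilloma and 26.6 to 52.8 in cuSCC. On that scale papilloma and CHR overlapped, while cuSCC lay apart from CHR. Among detected entries, miR-138-5p thus stood near the middle in both lesions (median 54.4% in PAP and 41.4% in cuSCC). It was far below the keratinocyte microRNA miR-205-5p, which measured 18.22 in PAP and 18.08 in cuSCC (group means, log2 ppm).

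The level of miR-138-5p in cuSCC minus that in papilloma was −0.17 on the log2 scale, against a pooled SD of 0.942. Both lesion types took part in the selection, which favours like levels in them, so this difference is not tested either. Within mice, cuSCC was the higher lesion in mice 2 (by 1.65) and 9 (by 0.75). It was the lower one in the other four, with differences of −1.44 in mouse 3, −1.41 in mouse 10, −0.48 in mouse 7 and −0.11 in mouse 8. The sign of the mean difference turned without mouse 3 (0.082) or without mouse 10 (0.075), and also without the 3 libraries whose lowest detected value was above 5.5 (0.32).

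The 3p arms can be assigned to the 2 genes separately. miR-138-2-3p, the arm of the chromosome 8 gene, was not detected in any of the 18 libraries. Lowest detected values reached 5.77 in CHR, 6.83 in PAP and 4.50 in cuSCC, so a lower level would not have been seen. As this arm is mostly degraded, its absence does not show whether the chromosome 8 gene gave miR-138-5p. miR-138-1-3p, the arm of the chromosome 9 gene, was detected in 4 of 6 CHR, 4 of 6 PAP and 6 of 6 cuSCC libraries. In CHR it measured 5.30 in mouse 2, 4.19 in mouse 8, 4.10 in mouse 9 and 3.70 in mouse 10, and it was undetected in mice 3 and 7, as the 5p arm was.

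In papilloma miR-138-1-3p measured 4.77 in mouse 2, 7.08 in mouse 3, 7.72 in mouse 7 and 7.44 in mouse 8. It was not detected in mice 9 and 10, whose lowest detected values were 5.48 and 6.83, so only a higher level could have been seen there. In cuSCC it measured 4.54, 3.52, 4.50, 4.27, 7.36 and 6.80 in mice 2, 3, 7, 8, 9 and 10. The papillomas of mice 3, 7 and 8 and the cuSCC of mice 9 and 10 stood well above every CHR library, while the remaining detected lesion values lay within the CHR range, which overlapped both lesion types.

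Group means of miR-138-1-3p were 3.99 ± 0.74 in CHR, 5.61 ± 2.06 in PAP and 5.17 ± 1.54 in cuSCC (SD, n = 6 each). The difference from CHR was 1.62 ± 0.81 (SE, 95% interval −0.14 to 3.38, limma adjusted p = 0.152) in papilloma and 1.18 ± 0.62 (−0.14 to 2.50, adjusted p = 0.138) in cuSCC, and neither passed the threshold of 0.05. For comparison, 41 of the 293 tested microRNAs (14%) were higher in papilloma than in CHR at an adjusted p under 0.05, and 59 (20.1%) were higher in cuSCC. With undetected values at the lowest detected value of their library, the papilloma difference was 1.96 and passed (limma adjusted p = 0.00893). That setting placed the undetected papillomas of mice 9 and 10 at 5.48 and 6.83, above the highest detected CHR value, 5.30. The undetected CHR of mice 3 and 7 stood at 4.48 and 5.77. The pass thus rests on filled values, and 63 of 293 tested microRNAs were higher in papilloma in that setting. cuSCC minus papilloma was −0.44 ± 0.95 (−2.51 to 1.63, adjusted p = 0.787), with a sign that turned without mouse 3 (0.18), mouse 7 (0.11) or mouse 8 (0.10).

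The 5p arm exceeded the 3p arm in nearly every library that showed both. In CHR the difference of the 5p from the 1-3p level was −0.43, 1.72, 1.22 and 1.71 in mice 2, 8, 9 and 10 (median 1.46 of these 4), so mouse 2 was the library in which the 3p arm stood higher. In papilloma it was 2.77, 1.85, 0.84 and 0.42 in mice 2, 3, 7 and 8, and at least 2.59 and 3.77 in mice 9 and 10, where the 3p arm was not detected, so the median over all 6 papillomas was at least 2.22. In cuSCC it was 4.65, 3.97, 3.58, 3.47, 1.46 and 2.39 in mice 2, 3, 7, 8, 9 and 10 (median 3.52). Within cuSCC the arm difference was smallest in mice 9 and 10, whose 3p arm was high.

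**Figure D2:**
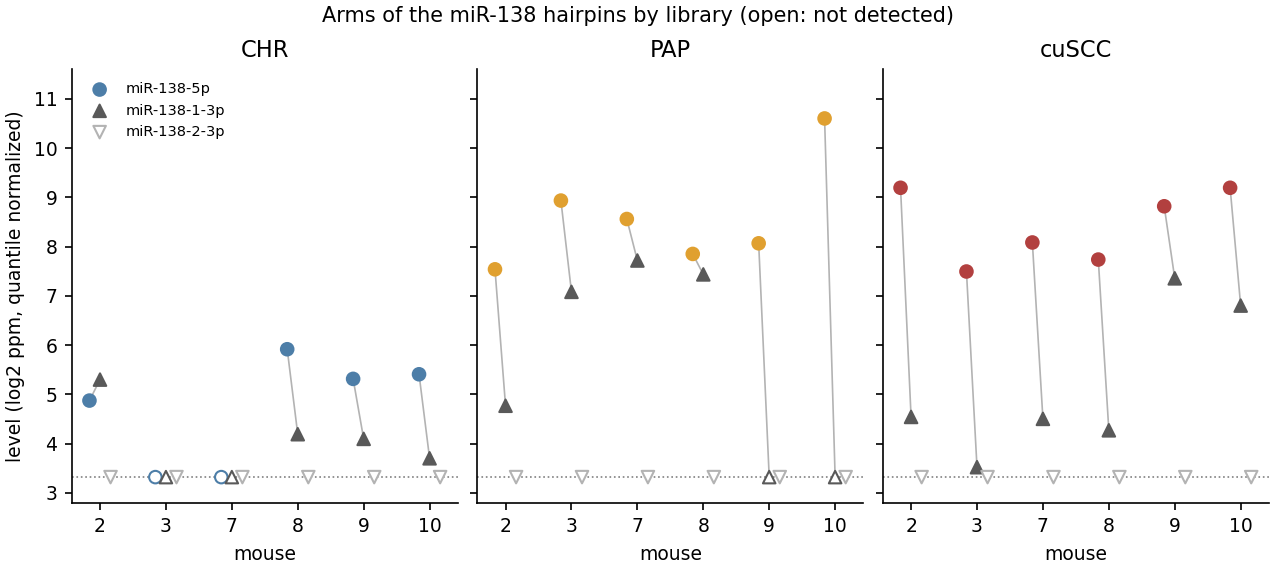
Levels (log2 ppm) of miR-138-5p and miR-138-1-3p in each of the 18 libraries, by sample type and mouse; open points were not detected and stand at 3.32. The 5p arm separates the lesions from CHR, whereas the 3p arm reaches about 7 in the papillomas of mice 3, 7 and 8 and in the cuSCC of mice 9 and 10 and overlaps CHR elsewhere.

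The tested microRNAs whose profile over the 18 libraries was most like that of miR-138-5p were found by the root mean square difference between profiles, each centred on its own mean. It was 0.951 for miR-210-3p, the microRNA induced by hypoxia, 1.03 for miR-200a-5p, 1.08 for miR-17-5p of the polycistronic miR-17 cluster, 1.14 for miR-205-3p, 1.15 for miR-31-5p and 1.17 for miR-98-5p of the let-7 family. The next value was 1.18 and the median over all tested microRNAs 2.28, against a spread of miR-138-5p about its own mean of 2.02. Only 3 of these 6 (miR-210-3p, miR-17-5p and miR-205-3p) were still among the nearest 6 when undetected values stood at the lowest detected value of their library. The 6 were picked from these values, so their levels are a description.

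miR-210-3p measured 7.90 ± 0.41 in CHR, 11.06 ± 0.57 in PAP and 10.29 ± 0.58 in cuSCC (log2 ppm, SD, n = 6). miR-31-5p, which is abundant in proliferating epidermis, measured 11.95 ± 0.65, 15.15 ± 0.73 and 14.66 ± 0.82, and miR-17-5p 6.78 ± 0.63, 9.10 ± 0.62 and 9.19 ± 0.68. All 3 had lesions wholly above CHR, like miR-138-5p, and miR-210-3p and miR-17-5p had a smaller SD than miR-138-5p in each sample type. miR-205-3p, the 3′ arm of the miR-205 hairpin, measured 6.94 ± 0.67, 9.13 ± 0.60 and 9.27 ± 0.93, also with lesions wholly above CHR. miR-200a-5p was the lowest of them, at 4.22 ± 0.78, 6.74 ± 0.87 and 5.96 ± 1.27, and its cuSCC and CHR values overlapped. miR-98-5p measured 6.37 ± 1.51, 8.28 ± 1.11 and 8.87 ± 0.66, and its CHR spread came from mouse 7, in which it was not detected. Its lesions lay wholly above CHR as well, in papilloma by little (lowest PAP 7.21, highest CHR 7.18).

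**Figure D3:**
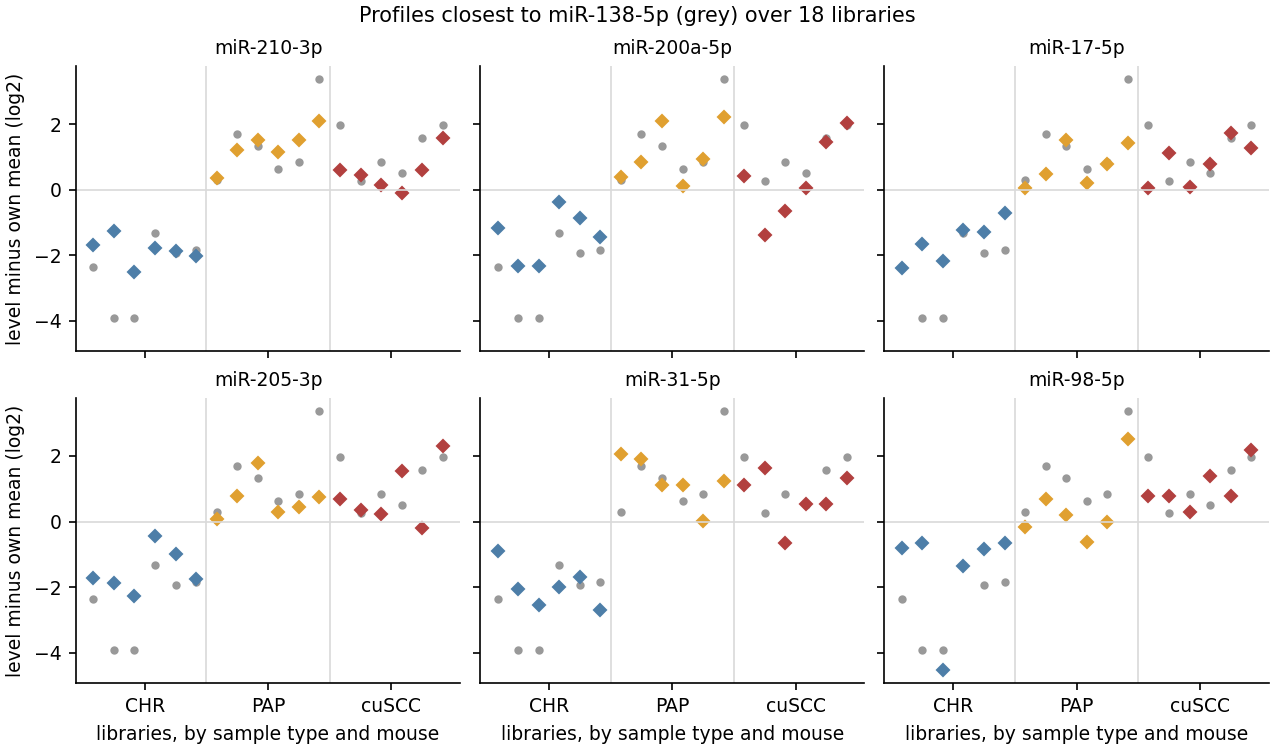
Profiles over the 18 libraries, each centred on its own mean (log2), of miR-138-5p and the 6 microRNAs with the smallest root mean square difference from it, 0.951 to 1.17. All are low in CHR and higher in PAP and cuSCC, the pattern by which they were picked.

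None of the microRNAs described to accumulate with miR-138 in senescing keratinocytes passed the test as higher in a lesion. Of 3 listed and tested, 2 fell in papilloma, where 54 of 293 tested microRNAs (18.4%) were lower. miR-181a-5p fell by 2.01 from 17.90 ± 0.96 to 15.89 ± 1.12 (SD, n = 6; limma adjusted p = 0.0189), and miR-181b-5p fell by 1.37 from 12.01 ± 0.65 to 10.64 ± 0.86 (adjusted p = 0.0304). miR-130b-3p gave −0.13. The median of the list was −1.37, beside −0.23 over all tested microRNAs. In cuSCC none of the 3 passed in either direction, against 65 of 293 (22.2%) that were lower, and the list median was −0.74 beside 0.11. Differences there were −1.06 for miR-181a-5p (unadjusted p = 0.0353, adjusted p = 0.0739), −0.74 for miR-181b-5p and 0.79 for miR-130b-3p. The papilloma call of miR-181a-5p was lost in 4 of 16 alternatives (without mouse 3, 7 or 8, or without the 3 libraries of high lowest detected value) and that of miR-181b-5p in 7, including without mouse 2, 3, 7, 8 or 9, with adjusted p up to 0.0813.

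Of 4 other microRNAs for which EZH2 is a described target, 3 were tested, of which 2 rose in cuSCC and none passed the test in papilloma, beside 20.1% and 14% of all tested microRNAs that were higher there. miR-26b-5p went from 9.37 ± 0.28 in CHR to 10.41 ± 0.24 in cuSCC (difference 1.04 ± 0.25 SE, limma adjusted p = 0.00476). miR-26a-5p, among the most abundant entries, went from 15.40 ± 0.49 to 16.16 ± 0.12 (0.76 ± 0.27, adjusted p = 0.0365). The list median was 0.76 in cuSCC beside 0.11 over all tested, and 0.12 in papilloma beside −0.23. No member passed between cuSCC and papilloma, where 27 of 293 (9.22%) were higher and 7 (2.39%) lower in limma. At an unadjusted p under 0.05, miR-101a-3p and miR-26a-5p were higher in cuSCC. miR-101a-3p was not detected in any papilloma and reached at most 5.41 in cuSCC. The lowest detected value of papilloma libraries ranged from 3.71 to 6.83, so such levels could have gone unseen in some of them. The cuSCC call of miR-26a-5p was lost in 6 of 16 alternatives, among them without mouse 2, 3, 7 or 8 and with mouse as a block, with adjusted p up to 0.109.

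The list of epithelial microRNAs that target ZEB factors, a target class that miR-138 shares through ZEB2, held 5 members of the miR-200 family, which holds cells in an epithelial state, and miR-205-5p. In papilloma 4 of 6 rose, beside 14% of all tested microRNAs, namely miR-200b-3p (0.96, adjusted p = 0.0433), miR-200c-3p (1.24, 0.00516), miR-141-3p (1.58, 0.0181) and miR-429-3p (1.87, 0.00575, limma in each case), and the list median was 1.41 beside −0.23. miR-205-5p passed in neither lesion (0.35 in papilloma and 0.21 in cuSCC), nor did miR-200a-3p in papilloma (1.60) or miR-200b-3p in cuSCC (0.88). In cuSCC 3 of 6 rose, beside 20.1%, namely miR-200a-3p (2.02, adjusted p = 0.0227), miR-141-3p (1.72, 0.0165) and miR-429-3p (1.25, 0.0320), with a median of 1.06 beside 0.11. miR-200c-3p differed between the lesions, with 11.58 ± 0.41 in PAP and 10.13 ± 0.66 in cuSCC (difference −1.45 ± 0.34 SE, adjusted p = 0.0319), while its cuSCC mean was close to the 10.34 ± 0.44 of CHR. The largest of these differences, 2.02, was smaller than those of miR-138-5p. The papilloma calls of miR-200c-3p and miR-429-3p held in every alternative, whereas that of miR-200b-3p was lost in 9 of 16, including without mouse 2, 3, 7, 8 or 9 (adjusted p up to 0.195), and the cuSCC against PAP call of miR-200c-3p in 9 of 16, including without mouse 3, 7, 8 or 9 (up to 0.134). The papilloma call of miR-141-3p was lost in 3, without mouse 3 or 7 among them (up to 0.0846). In cuSCC those of miR-141-3p, miR-200a-3p and miR-429-3p were lost in 2, 5 and 6 (up to 0.0889, 0.0903 and 0.129), each of them without mouse 2 or 3 and the last also without mouse 10.

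**Figure D4:**
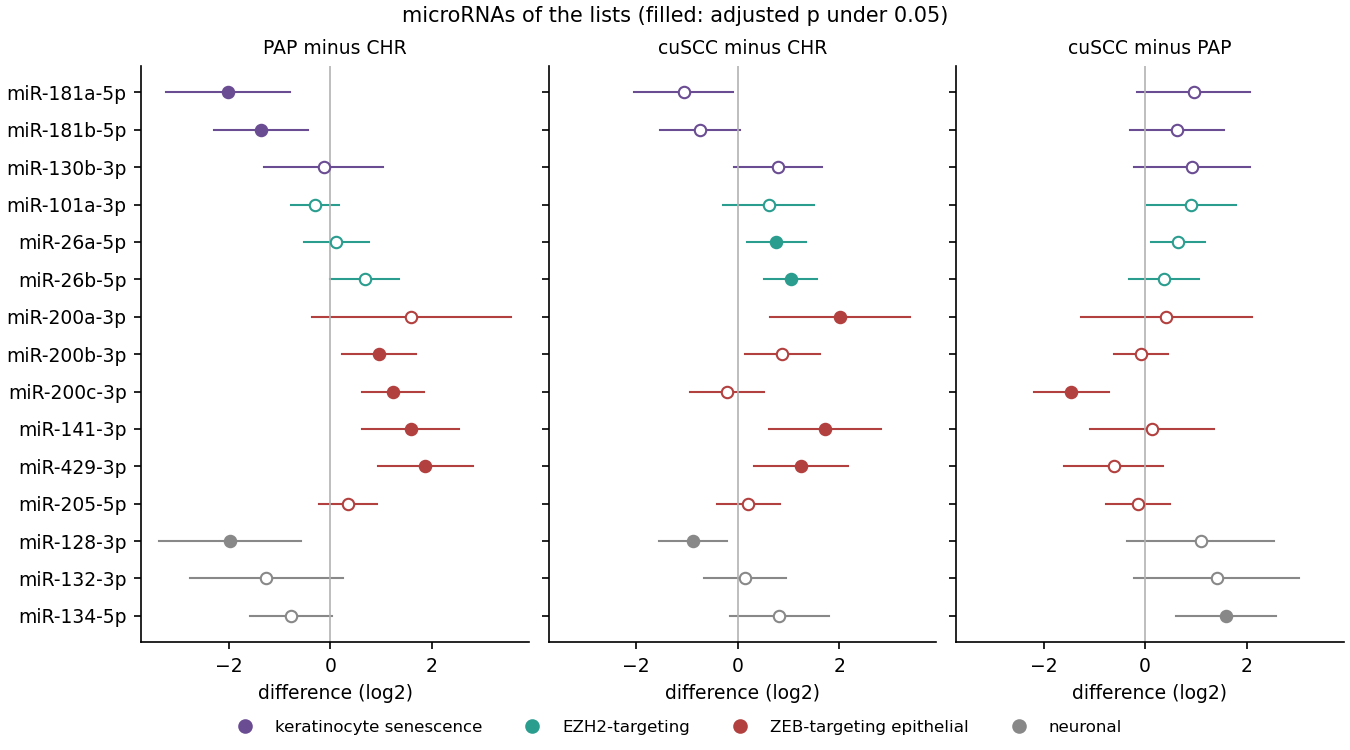
Differences of group means (log2) with 95% intervals from limma for listed microRNAs of keratinocyte senescence, EZH2 targeting, ZEB targeting and neurons, in PAP minus CHR, cuSCC minus CHR and cuSCC minus PAP; filled points have an adjusted p under 0.05. Of 6 ZEB-targeting microRNAs 4 rise in PAP and 3 in cuSCC, miR-181a-5p and miR-181b-5p fall in PAP, and miR-26a-5p and miR-26b-5p rise in cuSCC.

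Since miR-138 is best known from brain, neuronal microRNAs were examined beside it. Of 10 listed, the defining miR-124-3p as well as miR-9-3p, miR-137-3p, miR-219-5p and miR-129-5p were undetected in all 18 libraries, miR-9-5p was detected in 1 and miR-7a-5p in 2. Of the 3 that were tested, miR-128-3p, which many tissues express, fell in papilloma (−1.97, limma adjusted p = 0.0364) and in cuSCC (−0.88, adjusted p = 0.0362). The list median was −1.26 in papilloma and 0.14 in cuSCC, beside −0.23 and 0.11. Between the lesions miR-134-5p was higher in cuSCC (1.59, adjusted p = 0.0410), a call that was lost in 11 of 15 alternatives. The summed level of the list was 9.12 to 9.80 in CHR, 8.09 to 8.72 in the 5 papillomas with a detected member and 8.62 to 9.89 in cuSCC (log2 ppm). The summed level came mainly from miR-128-3p and miR-132-3p (8.52 and 8.18 in CHR, group means), and its median was not higher in either lesion. A part of neuronal cells in the miR-138-5p difference was not tested. Both calls of miR-128-3p were lost in 7 and 6 of 16 alternatives, without mouse 2, 3, 8 or 9 in each case, with adjusted p up to 0.0904 and 0.245.

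Markers of other cell types moved with the lesions, and their part in the miR-138-5p difference was not tested. Over all tested microRNAs, 14% were higher and 18.4% lower in papilloma than in CHR, and 20.1% were higher and 22.2% lower in cuSCC, as the background of the counts that follow. Keratinocyte markers were high in all libraries, with a summed level (log2 ppm) between 17.46 and 18.49 in CHR, between 17.74 and 18.52 in PAP and between 17.46 and 18.52 in cuSCC, so the defining microRNAs of the labelled tissue were present, and 2 of 4 rose in papilloma and 1 of 4 in cuSCC. The skeletal muscle sum was 15.44 to 15.98 in CHR, 4.95 to 12.44 in the 3 papillomas with a detected member and 5.16 to 14.24 in cuSCC, with 3 of 3 tested markers lower in papilloma and 1 in cuSCC. In CHR this sum came mainly from miR-133a-3p (group mean 15.63). The listed miR-1a-3p was detected in 1 of 18 libraries, a cuSCC, and was not tested. The fibroblast and smooth muscle sum was 14.30 to 15.06, 11.00 to 14.04 and 12.53 to 15.51 in CHR, PAP and cuSCC, with 3 of 5 lower in papilloma and 1 of 5 in cuSCC. By their medians, the sums of muscle and of connective tissue markers were lowest in papilloma.

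The melanocyte sum was 9.38 to 10.05 in CHR, 5.40 to 9.57 in the 4 papillomas with a detected member and 4.85 to 8.81 in cuSCC, with 1 of 2 markers lower in papilloma and both in cuSCC. In CHR this sum came mainly from miR-204-5p (group mean 9.47, beside 7.33 for miR-211-5p). The marker lower in papilloma was miR-204-5p, whereas miR-211-5p did not pass there (−1.27, limma adjusted p = 0.391). The leukocyte sum was 13.12 to 14.28, 8.95 to 11.82 and 11.12 to 12.59 in CHR, PAP and cuSCC, with 2 of 4 tested markers lower in each lesion and 1 higher in cuSCC. The listed miR-142-3p was detected in 2 of 18 libraries and was not tested. The endothelial sum was 7.84 to 9.35, 7.53 to 9.004 and 9.26 to 11.17, with both markers higher in cuSCC. By their medians, none of these 3 sums stood above CHR in both lesions. The erythroid marker miR-451a did stand higher in both, at 5.51 ± 1.37 in CHR, 10.29 ± 1.89 in PAP and 9.50 ± 1.52 in cuSCC (SD, n = 6). It rose by 4.78 in papilloma (limma adjusted p = 0.00106) and by 3.99 in cuSCC (adjusted p = 0.000747), whereas miR-486-5p of the same list fell by 1.27 in cuSCC (adjusted p = 0.0325, lost in 8 of 16 alternatives with adjusted p up to 0.115) and miR-144-3p was not detected in any library. The erythroid sum, in which miR-486-5p predominates, lay between 16.69 and 17.84 in CHR, 16.70 and 18.24 in PAP, and 14.86 and 17.87 in cuSCC. Between the lesions, 3 of 3 tested muscle, 2 of 5 fibroblast and smooth muscle, 2 of 2 endothelial and 1 of 4 leukocyte markers were higher in cuSCC than in papilloma, and 1 of 4 keratinocyte and 1 of 2 erythroid markers were lower, beside 9.22% higher and 2.39% lower over all tested microRNAs, while miR-138-5p gave −0.17 there. None of these marker calls between the lesions held in every alternative. That of miR-142-5p was lost in 1 of 16, and the others in 7 of 16 (miR-126-5p) up to 10 of 15 (miR-133b-3p and miR-206-3p). The muscle markers miR-133b-3p and miR-206-3p were not detected in any papilloma. Across all lists and comparisons 45 calls were made, of which 14 held in every alternative.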

How the data were processed

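Small RNA libraries from the CHR, PAP and cuSCC of 6 mice (18 libraries) were grouped by their labels. Abundance is each microRNA's share of the usable reads in ppm, from BLAST matches to miRBase after read clean-up, per the study's methods. The values that the authors deposited are log2 of that ppm after quantile normalization, never below 3.32 (10 ppm), as read from the values and the table's label. Read totals were not used, so no counting error is given, and no 2 libraries were identical.

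Entries above the lowest value in at least 6 libraries (293 of 1251) were tested in R 4.3.3 with the lmFit and eBayes functions of limma 3.58.1 (two-sided, both compared sample types in the fit, no block for mouse), with Benjamini-Hochberg adjustment over all of them and a threshold of 0.05. The procedure was tested on simulated data. A test of miR-138-5p between the lesions was planned but is not given, as the selection used both lesion types. Exact permutation tests, sequences and plots used Python 3.11.15 with numpy 2.4.6, pandas 2.3.3, scipy 1.17.1 and matplotlib 3.10.9. Same-numbered samples come from one animal, so the numbers pair the samples; the mean correlation of their deviations from the group means was 0.03, −0.07 and 0.06 in PAP against CHR, cuSCC against CHR and cuSCC against PAP. A replicate block for mouse was fitted as an alternative.

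miR-138-5p, the lists and the tests were chosen with earlier results of these data known. Named are miR-138-5p, its 3p arms, microRNAs sharing bases 2 to 7, members of the lists and the 6 tested microRNAs with the most similar profile. The lists were taken from general knowledge and cover keratinocyte senescence, EZH2 targeting, ZEB targeting, and markers of neurons, keratinocytes, melanocytes, leukocytes, erythroid cells, endothelium, skeletal muscle, and fibroblasts with smooth muscle. miR-205-5p, miR-200c-3p and miR-141-3p are in both the ZEB and the keratinocyte list. For miR-126, miR-142, miR-219 and miR-486 the older names of the table were used. Alternatives were other treatments of undetected values, other filters, centring, one fit for all sample types, the block, exact permutation tests and leaving out each mouse. Leaving out 3 libraries with a lowest detected value above 5.5, and all alternatives for miR-138-1-3p, were added after seeing the data.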

Additional observations from a re-analysis of the deposited data

Results flagged for a closer look

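In 24 groups of 6 libraries, 1 library stood apart from the rest of its group. miR-98-5p in the CHR of mouse 7 was at 3.32 (log2 ppm, not detected), and the gap to the next CHR library was 0.82 of the whole range of the group, above Dixon's 95% critical value for 6 samples. The lowest detected value of that library was 5.77. Chance flags about 1 in 20 groups. The papilloma of mouse 10, the highest for miR-138-5p, stayed under that value, with a gap of 0.544 of the range.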

How the results depend on the processing

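For miR-138-5p every lesion library lay above every CHR library, the pattern for which it was selected. Leaving out mice, the block and other treatments of undetected values therefore could not turn the sign of its differences from CHR. Only their sizes are informative. Without 1 mouse they were 3.56 to 4.29 (PAP) and 3.52 to 4.11 (cuSCC). Raising low values to 100 ppm gave 1.95 and 1.78, the 2 values that moved beyond the replicate spread. Centring the libraries on their medians gave 3.97 and 3.73. cuSCC minus PAP of miR-138-5p was −0.54 to 0.08 without 1 mouse, turning positive without mouse 3 (0.082) and mouse 10 (0.075), and 0.32 without the libraries of high lowest detected value. For miR-138-1-3p the papilloma difference was 1.96 and passed with undetected values at the lowest detected value of the library. The undetected papillomas of mice 9 and 10 then stood above every detected CHR value. For the same arm, leaving out 1 mouse gave 1.06 to 2.10 (PAP), 0.76 to 1.56 (cuSCC) and −1.34 to 0.18 (cuSCC minus PAP), positive without mouse 3 (0.18), mouse 7 (0.11) or mouse 8 (0.10). Counts over all tested microRNAs moved more. Leaving out 1 mouse gave 25 to 38 higher and 30 to 41 lower in PAP, 37 to 65 and 40 to 64 in cuSCC, and 1 to 40 and 0 to 19 between cuSCC and PAP, lowest without mouse 3 in each comparison (between the lesions also without mouse 7 or 8, and for lower microRNAs without mouse 9) and highest between the lesions without mouse 10. With undetected values at the lowest detected value, PAP against CHR gave 63 higher and 37 lower (41 and 54 as reported) and cuSCC against PAP 18 and 62 (27 and 7). With 100 ppm as the lowest value, 28 were lower in PAP, 39 higher and 41 lower in cuSCC, and 2 higher and 0 lower between the lesions. Without a filter, 32 were lower in PAP, and 2 were higher and 0 lower between the lesions; with detection in at least 12 libraries the latter counts were 17 and 4, in one fit for all sample types 13 were lower, and with the replicate block 3 were lower. Without the libraries of high lowest detected value, 34 were lower in PAP, and 4 were higher and 0 lower between the lesions. The exact permutation test gave 0 and 0 between the lesions, beside 51 and 24 at an unadjusted p under 0.05, and the other counts of 0 lower stood beside 13 to 37 in limma. Among the listed microRNAs miR-134-5p (cuSCC minus PAP, 1.59) turned to −0.13 with undetected values at the lowest detected value. Unless an alternative's own construction shows it, the cause was not tested. The unknown read depth limits all statements on undetected values.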
